A study of Mus musculus with 12 samples.

Results

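The interleukin genes described here were all genes whose symbol begins with Il and a digit. They numbered 77 of the 20774 genes measured, and comprised 31 ligands, 40 receptor chains and 6 other genes (antagonists, soluble binding proteins, an antisense RNA and an enzyme). They were measured by RNA sequencing of homogenized whole lung from wild-type C57BL/6J mice labelled as 8 week. The control 1w and control 4w groups received saline, and the PQ 1w and PQ 4w groups a single dose of paraquat (PQ), a herbicide that injures the lung through redox cycling, in saline into the trachea. The 1w and 4w of the labels are read as weeks after that dose, and each of the 4 groups held 3 libraries. The labels do not state that the libraries of a group came from separate animals, so p-values measure the spread between these libraries, which may be partly technical.

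Interleukins are secreted signals between immune, epithelial and stromal cells, and most act through receptors built from a ligand-specific chain and a chain shared by a family. The shared chains sort the family into groups. Among others, gp130 (Il6st) serves IL-6 and IL-11, and the common gamma chain (Il2rg) serves IL-2, IL-7, IL-9, IL-15 and IL-21. The IL-1 family uses related receptors that recruit MyD88. In the lung, epithelial and stromal cells are known sources of alarmins such as IL-33 and of IL-6 and IL-11, while many receptor chains mark lymphocytes and myeloid cells.

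Library totals were between 17220978 and 18559809 counts, with little difference in depth between groups. In 54 of the 77 genes the counts sufficed for a test, and the other 23, of which 17 were ligands, stayed at 67 or fewer counts over all 12 libraries. Levels below are counts scaled to the library total (counts per 1000000, CPM). Log2 effects and their standard errors (SE) come from edgeR's quasi-likelihood test over 15921 genes, with p-values adjusted over all of these, and "rose" or "fell" means an adjusted p under 0.05. PQ 4w replicate 3 stood apart from the other libraries of its group: its counts differed from theirs by a chi-square per degree of freedom of 31.5 and 33.7, where every other pair within a group lay between 7.23 and 15.9. Markers of alveolar type 2 epithelium (8 genes), which define lung, summed to 30500 to 37000 CPM in control 1w and 19000 to 21100 CPM in PQ 1w, with 8 of 8 lower, and to 26600 to 29500 CPM in control 4w and 30700 to 32900 CPM in PQ 4w, with 3 higher and 0 lower. Endothelial markers (7 genes) went from 3730 to 4220 CPM to 2320 to 2740 CPM at 1w, with 6 lower, and from 4010 to 4220 CPM to 2530 to 3220 CPM at 4w, with 6 lower and 1 higher. The part of these cells in the falls below was not tested. Since whole lung was measured, fewer cells of a type and less RNA per cell cannot be told apart.

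Compared per transcript length, as fragments per length and depth (FPKM), the receptor chains led the family in control lung at 1w. The shared chain Il6st had the highest level at 76.7 ± 8.56 FPKM (SD, n = 3), followed by Il2rg at 54.8 ± 3.38, Il10rb at 49.0 ± 1.76 and Il4ra at 48.2 ± 8.45 FPKM. Il10rb and Il4ra did not differ beyond their spread. Among the ligands Il33 was highest at 34 ± 3.23 FPKM, above Il34 at 12 ± 1.52, Il1b at 11.9 ± 6.08 and Il18 at 8.82 ± 1.11 FPKM. Il1b did not differ from Il34 or Il18 beyond its SD. Of the 54 tested genes the highest group mean lay in PQ 4w for 20, in PQ 1w for 15, in control 1w for 13 and in control 4w for 6.

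At 1w after paraquat the ligands Il6, Il11 and Il33 rose, whereas receptor chains known from lymphocytes, among them Il2rb, Il12rb2 and Il7r, fell. In all, 31 of 54 tested genes passed, 57.4% against 48.8% of all tested genes, with 10 higher and 21 lower, where 25.9% and 22.9% of all tested genes were higher and lower. The median log2 effect was -0.28 for the family and 0.00 for all tested genes. The receptor chains supplied most of the falls, with 17 lower and 5 higher among 35 tested, while the ligands had 3 lower and 4 higher among 14. Libraries of the PQ 1w and control 1w groups did not overlap for 34 of the 54 genes, against 58.6% of all tested genes, a share near that of all genes. Of the 31 calls, 20 held in each refit that left out 1 library. The plot of effects by family shows all 54 tested genes at both times.

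**Figure D1:**
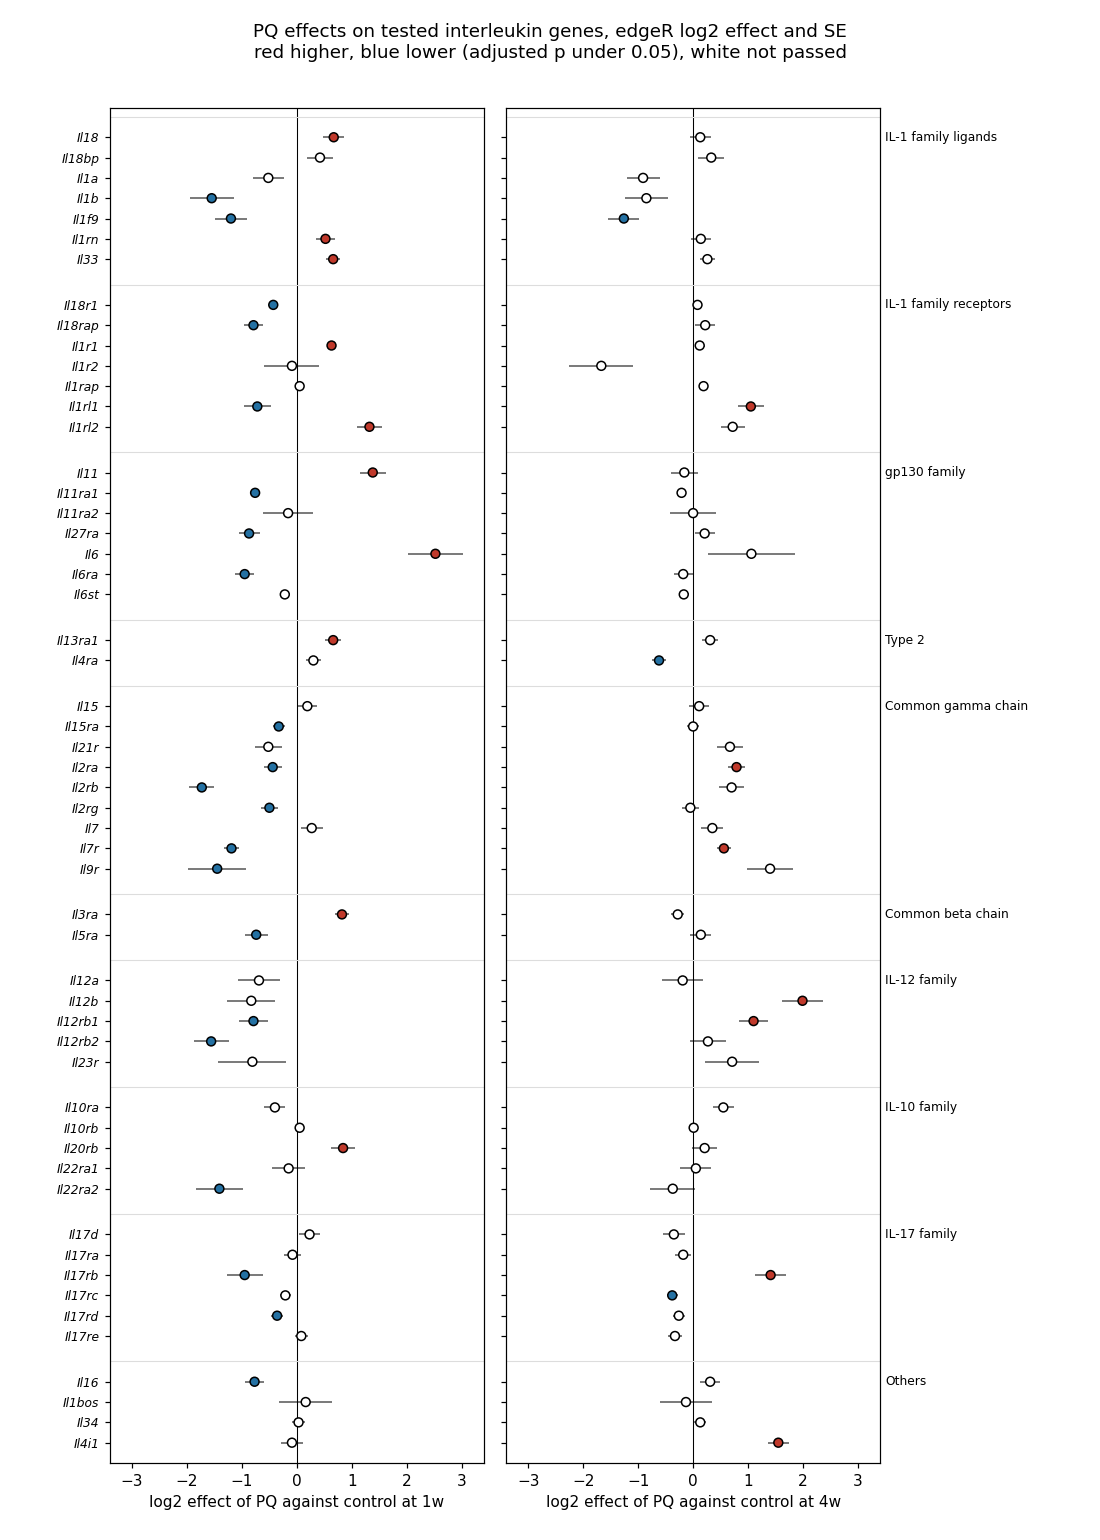
Log2 effect of PQ against control (points) with its SE (bars) for the 54 tested interleukin genes, at 1w on the left and 4w on the right, grouped by family. Red points rose and blue points fell at an adjusted p under 0.05: 10 and 21 genes at 1w, 7 and 3 at 4w.

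The gp130 ligands Il6 and Il11 both rose at 1w. Il6 encodes the acute-phase cytokine interleukin 6 and had a mean level below the 0.5 CPM set for full description, so it was chosen after its values were seen. The 250 bases before the start of Il6 and Il11 are shown because both genes moved together and each window holds a match to the AP-1 motif TGANTCA, in capitals. The sequences are RefSeq's for GRCm38.p6, at chr5:30012864-30013113 on the plus strand for Il6 and at chr7:4778142-4778391 on the minus strand for Il11, where the window is 1 of 2 listed. This Il11 window was picked for its match, and the other, at chr7:4782858-4783107, holds no match to TGANTCA.
Il6: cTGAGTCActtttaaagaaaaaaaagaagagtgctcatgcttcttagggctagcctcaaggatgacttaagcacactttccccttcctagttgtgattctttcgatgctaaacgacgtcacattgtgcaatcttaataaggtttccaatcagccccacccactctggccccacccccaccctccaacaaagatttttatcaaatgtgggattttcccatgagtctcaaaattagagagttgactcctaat
Il11: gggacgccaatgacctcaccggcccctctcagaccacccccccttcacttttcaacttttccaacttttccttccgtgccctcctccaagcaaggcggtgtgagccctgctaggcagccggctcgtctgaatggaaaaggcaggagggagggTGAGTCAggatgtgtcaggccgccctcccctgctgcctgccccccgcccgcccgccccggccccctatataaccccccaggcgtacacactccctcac
The match lay 249 to 243 bases before the start in Il6 and 98 to 92 bases before it in Il11. On both strands, 6.75% of all 32851 such windows and 12 of the 76 windows of the 61 interleukin genes with an entry held TGANTCA. These are matches of letters, from which neither binding nor a cause is read.

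Il6 was at 0.224, 0.166 and 0.11 CPM in control 1w and at 0.754, 1.46 and 0.763 CPM in PQ 1w. Every PQ 1w library lay above every control library of either time. The log2 effect was 2.52 ± 0.50 (SE, adjusted p = 0.0014, edgeR), a 5.73-fold rise, resting on 77 counts over all 12 libraries. At 4w Il6 was back to 0.116, 0.172 and 0.229 CPM with PQ against 0.113, 0.114 and 0.0 CPM in controls. From PQ 1w to PQ 4w it fell by 2.54 on the log2 scale (SE 0.50, adjusted p = 0.00112, edgeR).

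Il11, which encodes a cytokine of stromal cells tied in the literature to fibrosis, was at 1.83, 1.45 and 1.85 CPM in control 1w and at 3.83, 5.39 and 4.31 CPM in PQ 1w. The groups did not overlap, and the 2.60-fold rise had a log2 effect of 1.38 ± 0.24 (SE, adjusted p = 0.000605, edgeR). At 4w the values were 2.98, 2.95 and 1.63 CPM in controls and 2.2, 2.75 and 2.19 CPM with PQ. These overlapped, and the PQ effect at 4w was lower than at 1w by a log2 difference of -1.54 ± 0.35 (adjusted p = 0.00583).

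The receptors of these ligands went the other way at 1w. Il6ra, the IL-6 binding chain, fell from 52.8 ± 15.4 to 27.6 ± 3.09 CPM (SD, n = 3), a log2 effect of -0.95 ± 0.17 (adjusted p = 0.000741). Il11ra1, the IL-11 binding chain, fell from 66.8 ± 4.45 to 39.6 ± 3.98 CPM, a log2 effect of -0.76 ± 0.08 (adjusted p = 1.2e-05). For Il11ra1 and its near copy Il11ra2 the assignment of reads is uncertain: their transcripts share 741 stretches of 50 bases, 15.8% of those of Il11ra1 and 59.3% of those of Il11ra2. Il27ra, the IL-27 receptor chain of T cells and others, fell by 0.87 on the log2 scale (adjusted p = 0.00227). The shared chain Il6st was at 423 ± 46.9 CPM in controls and 366 ± 10.1 CPM with PQ and did not pass (adjusted p = 0.0532), although it passed in 7 of the alternatives tried. At 4w none of the 7 tested genes of this family passed in edgeR, DESeq2 or limma, and 1 of 7 had an unadjusted edgeR p under 0.05. Of all tested genes 12.1% passed at 4w in edgeR, so few calls among 7 genes would be usual at this time.

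Partner genes of the family that the naming rule leaves out were followed in a list of 17 cytokines and receptor chains, all tested. At 1w 12 passed, 70.6% against 48.8% of all tested genes, with 6 higher and 6 lower and a median log2 effect of 0.11. Lif, a gp130 cytokine, rose from 4.28 ± 0.691 to 21.7 ± 4.69 CPM with a log2 effect of 2.33 (adjusted p = 2.27e-05). Cntfr, the CNTF receptor chain, had a log2 effect of -1.16 (adjusted p = 0.000169), and Ebi3, the partner subunit of Il27, one of -1.05 (adjusted p = 0.0114). At 4w 1 of the 17 passed, 5.88% against 12.1% of all tested genes. It was Csf2rb2, a beta chain of the IL-3 receptor named after its value was seen, at a log2 effect of 0.86 (adjusted p = 0.0207).

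Among the IL-1 family ligands Il33 and Il18 rose at 1w and Il1b and Il1f9 fell. Il33, the alarmin read by the receptor Il1rl1, was at 85.8, 95 and 78.4 CPM in control 1w and at 138, 114 and 161 CPM in PQ 1w. The groups did not overlap (log2 effect 0.66 ± 0.13, adjusted p = 0.00139). At 4w Il33 was at 56.5, 52.8 and 66.8 CPM in controls and 71.1, 66.6 and 83.7 CPM with PQ, which overlapped (adjusted p = 0.238). Il33 also differed between the controls, lower at 4w by a log2 effect of -0.57 (adjusted p = 0.0288). Il18, a cytokine released after caspase-1 cleavage, rose from 7.44 ± 0.939 to 11.9 ± 2.14 CPM at 1w (log2 effect 0.67 ± 0.19, adjusted p = 0.011). Il1rn, the IL-1 receptor antagonist, rose by a log2 effect of 0.52 (adjusted p = 0.0257) although the groups overlapped, and the call was lost without control 1w replicate 1 or 2 or PQ 1w replicate 2 or 3 (adjusted p = 0.0714, 0.066, 0.127 and 0.0728).

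Il1b, the inflammasome product interleukin 1 beta, was at 14.1, 8.86 and 24.8 CPM in control 1w and at 4.8, 5.4 and 6.21 CPM in PQ 1w. The control libraries were scattered, yet all lay above the PQ libraries (log2 effect -1.55 ± 0.40, adjusted p = 0.00641). At 4w the values were 15.4, 20.2 and 6.73 CPM in controls and 8.88, 6.19 and 9.56 CPM with PQ, which overlapped (adjusted p = 0.174). A list of 8 neutrophil markers summed to 253, 131 and 280 CPM in the same control 1w libraries and to 270, 478 and 130 CPM in control 4w, so within each control group its order over the libraries was that of Il1b. In PQ 1w it held 178, 236 and 242 CPM, again in the order of Il1b, and in PQ 4w 537, 337 and 108 CPM, which was not that order. Of the 8 markers 2 were lower and 0 higher at 1w, and 5 were lower and 0 higher at 4w. Yet the sum reached 537 CPM in PQ 4w against 478 CPM in control 4w, so it did not follow most of its markers there. None of the list's markers was at 0 in any library, and the list's part in the Il1b values was not tested.

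Il1f9, the epithelial and myeloid cytokine IL-36 gamma, was the 1 gene of the 54 tested that fell at both times. It was at 9.18, 7.12 and 10.2 CPM in control 1w and 4.11, 3.69 and 3.85 CPM in PQ 1w, without overlap (log2 effect -1.20 ± 0.29, adjusted p = 0.00438). At 4w it was at 10, 18.5 and 6.85 CPM in controls and 4.87, 5.0 and 5.62 CPM with PQ, again without overlap (log2 effect -1.26 ± 0.28, adjusted p = 0.0144). In each control group the libraries ranked by Il1f9 as by the neutrophil list, and in the PQ groups they did not. The part of that list in the Il1f9 values was not tested. The 6 club and ciliated airway markers summed to 22300 to 31000 CPM in control 1w and 4460 to 5560 CPM in PQ 1w. Of these, 3 were lower and 0 higher. At 4w they summed to 46600 to 54200 CPM in controls and 24000 to 47800 CPM with PQ, with 1 lower and 0 higher. The part of these airway cells was not tested either. The 4w call of Il1f9 was lost without PQ 4w replicate 1 (adjusted p = 0.0526). Its receptor Il1rl2 moved up instead: it was at 5.88, 3.87 and 6.58 CPM in control 1w and 13.1, 16 and 11.9 CPM in PQ 1w. Those groups were well apart (2.50-fold, log2 effect 1.32 ± 0.22, adjusted p = 0.000388). At 4w Il1rl2 was at 4.73, 5.08 and 7.46 CPM in controls and 12, 9.05 and 8.87 CPM with PQ, where the groups did not overlap but the test did not pass (log2 effect 0.72 ± 0.22, adjusted p = 0.0548).

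Il1rl2 lies in a cluster of 6 IL-1 family receptor genes on chromosome 1 (GRCm38.p6, from 40084692 at Il1r2 to 40551707 at Il18rap), in the order Il1r2, Il1r1, Il1rl2, Il1rl1, Il18r1 and Il18rap. At 1w the neighbours moved in different directions. Il1r1, the signalling IL-1 receptor, rose from 70.4 ± 8.26 to 110 ± 7.02 CPM (log2 effect 0.63 ± 0.09, adjusted p = 0.000101). Il18r1 and Il18rap, the chains of the IL-18 receptor, fell by 0.43 and 0.79 on the log2 scale (adjusted p = 0.000891 and 0.00309). Their means in PQ 1w, 104 and 12.6 CPM, were near those of control 4w, 107 and 13.3 CPM. The decoy receptor Il1r2 spread from 2.99 to 9.52 CPM in control 1w and from 4.1 to 7.54 CPM in PQ 1w and did not pass (adjusted p = 0.899). At 4w Il1r2 was at 5.63, 7.88 and 1.35 CPM in controls and at 1.22, 1.37 and 2.29 CPM with PQ, which overlapped (log2 effect -1.67 ± 0.58, adjusted p = 0.0828). The libraries of control 4w ranked by the neutrophil list as by Il1r2, and those of the other 3 groups did not.

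**Figure D2:**
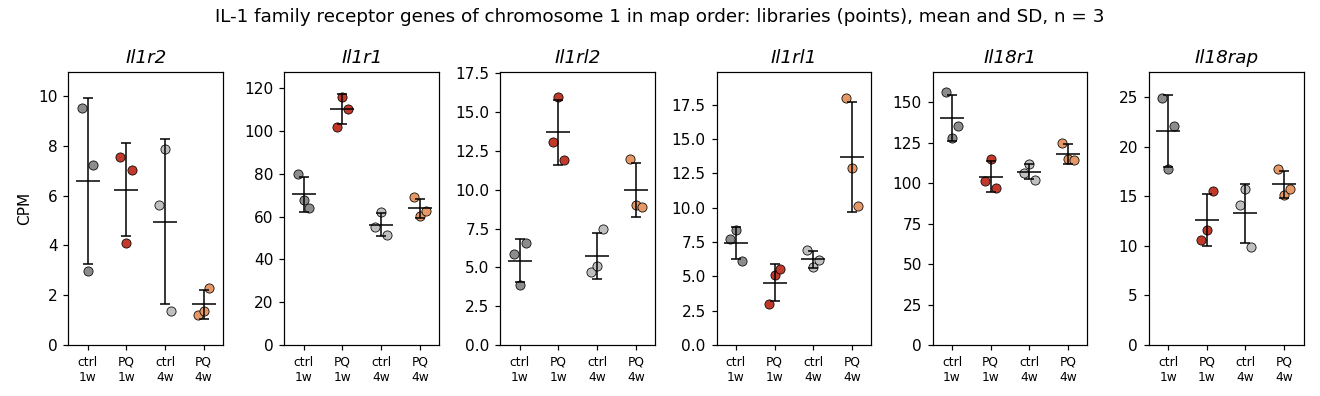
CPM of the 6 IL-1 family receptor genes of chromosome 1 in map order, in each library (points) with the group mean and SD (bars). Il1r1 and Il1rl2 are highest in PQ 1w, Il1rl1 is highest in PQ 4w at 10.1 to 18.0 CPM, and Il18r1 and Il18rap are highest in control 1w.

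Il1rl1, the IL-33 receptor ST2 of type 2 innate lymphoid cells, mast cells and regulatory T cells, was the 1 gene of the cluster that passed at both times, in opposite directions. It was at 7.73, 8.35 and 6.11 CPM in control 1w and 2.99, 5.06 and 5.54 CPM in PQ 1w (log2 effect -0.72 ± 0.25, adjusted p = 0.0288). By 4w it stood at 6.88, 5.66 and 6.22 CPM in controls and 18.0, 12.9 and 10.1 CPM with PQ (log2 effect 1.05 ± 0.24, adjusted p = 0.0154). Groups did not overlap at either time, PQ being the lower at 1w and the higher at 4w. The difference between the times was 1.77 ± 0.34 (adjusted p = 0.0024). The call at 1w was lost without control 1w replicate 1 or 2 or PQ 1w replicate 1 (adjusted p = 0.0701, 0.0893 and 0.108), and that at 4w without control 4w replicate 2 or PQ 4w replicate 1 (adjusted p = 0.0585 and 0.0611). Of a list of 6 markers of type 2 innate lymphoid cells, 2 were higher and 3 lower at 1w, with sums of 110 to 115 CPM in control 1w and 136 to 141 CPM in PQ 1w. At 4w 2 were higher and 0 lower, with 109 to 115 CPM in control 4w and 113 to 125 CPM in PQ 4w. Of the mast cell and basophil markers 3 of 4 tested were lower at 1w, from 4.55 to 5.27 CPM in control 1w to 1.99 to 2.59 CPM in PQ 1w. At 4w this list (8 genes) held 3.25 to 5.54 CPM in control 4w and 2.75 to 2.86 CPM in PQ 4w, with Fcer1a, Mcpt8, Ms4a2 or Tpsab1 at 0 in some libraries. The part of these cells in the Il1rl1 values was not tested.

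The common gamma chain family had 6 lower and 0 higher genes among 9 tested at 1w, where 22.9% and 25.9% of all tested genes were lower and higher, with a median log2 effect of -0.50. Il2rb, the beta chain of the IL-2 and IL-15 receptors on NK and T cells, was at 29.9, 27.7 and 34 CPM in control 1w and at 9.27, 8.8 and 9.75 CPM in PQ 1w. The PQ libraries were tightly grouped, far below the controls (3.31-fold lower, log2 effect -1.73 ± 0.23, adjusted p = 7.95e-05). The 4w values were 20.6, 15.5 and 15 CPM in controls and 25.3, 19.8 and 42.2 CPM with PQ. These overlapped (adjusted p = 0.0612), the highest value lying in PQ 4w replicate 3. The difference between the times was 2.43 ± 0.32 (adjusted p = 0.00027).

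Il7r, the IL-7 receptor on T cells and innate lymphoid cells, fell at 1w and rose at 4w. The 250 bases before its start are shown for this reversal and for a match to the STAT motif TTCNNNGAA, in capitals, 142 to 134 bases before the start. It lies at chr15:9529877-9530126 on the minus strand (RefSeq, GRCm38.p6).
Il7r: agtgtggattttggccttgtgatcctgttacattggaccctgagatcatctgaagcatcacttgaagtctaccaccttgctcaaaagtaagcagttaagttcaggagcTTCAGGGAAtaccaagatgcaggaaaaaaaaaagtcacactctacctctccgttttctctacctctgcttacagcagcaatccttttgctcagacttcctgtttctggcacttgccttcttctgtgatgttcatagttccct
The motif was in 7.02% of all windows and in 9 of the 76 interleukin windows on either strand. The motif of nuclear factor kappa B (GGG, any 5 bases, CC) was in 45.8% of all windows and 30 of the 76. The printed Il6 window also holds it, unmarked, while the printed windows of Il11 and Il7r do not. For both motifs these are matches of letters, from which no binding is read.

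Il7r was at 21.5, 17.4 and 20.6 CPM in control 1w and 7.98, 8.05 and 10.2 CPM in PQ 1w, without overlap (2.28-fold lower, log2 effect -1.19 ± 0.14, adjusted p = 3.09e-05). At 4w it was at 16.9, 20.3 and 20.2 CPM in controls and 31.9, 23.8 and 33.6 CPM with PQ, without overlap in the other direction (log2 effect 0.56 ± 0.13, adjusted p = 0.0193). The 4w call was lost without control 4w replicate 1 or PQ 4w replicate 1 (adjusted p = 0.0901 and 0.0678). Il2ra, the high-affinity IL-2 receptor chain of regulatory and activated T cells, had the same pattern. It was at 5.89, 4.63 and 4.3 CPM in control 1w and 3.12, 3.5 and 4.39 CPM in PQ 1w, which overlapped, and at 5.34, 4.63 and 5.27 CPM in control 4w and 9.5, 9.47 and 8.81 CPM in PQ 4w, which did not. The log2 effects were -0.44 ± 0.16 at 1w (adjusted p = 0.0401) and 0.79 ± 0.15 at 4w (adjusted p = 0.008). The 1w call of Il2ra was lost in 7 of the 12 refits without 1 library, with adjusted p up to 0.17 without control 1w replicate 1, and in other settings too.

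Il9r, the IL-9 receptor of mast cells and lymphocytes, was at 1.96, 0.719 and 1.75 CPM in control 1w and 0.269, 0.378 and 0.981 CPM in PQ 1w. The groups overlapped (log2 effect -1.45 ± 0.53, adjusted p = 0.0377), and the call was lost without control 1w replicate 1 or 3 or PQ 1w replicate 1 or 2 (adjusted p = 0.126, 0.102, 0.129 and 0.115). At 4w Il9r was at 1.52, 2.0 and 1.35 CPM in controls and 5.23, 2.35 and 5.95 CPM with PQ. There the groups did not overlap but the test did not pass (log2 effect 1.40 ± 0.42, adjusted p = 0.0514). The difference between the times, 2.84 ± 0.68, was the largest of the 23 that passed (adjusted p = 0.00757). The shared chain Il2rg fell at 1w by 0.50 on the log2 scale (adjusted p = 0.0148), a call lost without control 1w replicate 2 or PQ 1w replicate 2 (adjusted p = 0.0536 in each). Il15ra fell by 0.33 (adjusted p = 0.0278), lost without control 1w replicate 3 or PQ 1w replicate 2 or 3 (adjusted p = 0.0942, 0.111 and 0.0724). The ligands Il7 and Il15 did not pass at either time, at 3.14 and 4.47 CPM in control 1w and 3.81 and 5.14 CPM in PQ 1w.

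Lymphocyte markers moved with these receptor chains at 1w. Of the T cell list 9 of 9 measured markers (10 listed) were lower, and its sum went from 101 to 120 CPM in control 1w to 43 to 50.9 CPM in PQ 1w. The NK cell list had 8 of 8 lower and went from 94.3 to 103 CPM to 12.3 to 17.6 CPM, and the B cell list had 8 of 8 lower and went from 129 to 145 CPM to 30 to 34.1 CPM. At 4w 3 of 9 T cell markers were higher, with sums of 69.5 to 79.8 CPM in controls and 119, 79.9 and 173 CPM with PQ, and none of the 8 NK and 8 B cell markers passed in edgeR (0 and 1 with an unadjusted p under 0.05). The B cell list stood at 311 CPM in PQ 4w replicate 3 against 153 and 117 CPM in the other two. No marker of these 3 lists was at 0 in any library, and their part in the receptor values was not tested.

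Of the 5 tested genes of the IL-12 family 2 fell at 1w and 2 rose at 4w, 40% called at each time. Of all tested genes 48.8% were called at 1w and 12.1% at 4w, with 22.9% lower at 1w and 5.75% higher at 4w. Il12rb2, the signalling chain of the IL-12 receptor on T helper and NK cells, was at 3.59, 2.93 and 5.04 CPM in control 1w and 0.862, 1.57 and 1.53 CPM in PQ 1w. The groups did not overlap (2.94-fold lower, log2 effect -1.56 ± 0.32, adjusted p = 0.00186). By 4w it stood at 2.03, 1.71 and 2.47 CPM in controls and 3.89, 2.12 and 1.89 CPM with PQ, which overlapped (adjusted p = 0.63). Exons of Serbp1 on the opposite strand overlap 40% of the exonic bases of Il12rb2, and the strandedness of the libraries is not given in the sources used here, so reads of the pair cannot be told apart there. Serbp1 was at 226 ± 23.2 CPM in control 1w and 257 ± 13.6 CPM in PQ 1w (adjusted p = 0.0946).

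Il12rb1, the chain shared by the IL-12 and IL-23 receptors, was at 2.02, 2.21 and 2.3 CPM in control 1w and 1.4, 1.19 and 1.2 CPM in PQ 1w, without overlap (log2 effect -0.79 ± 0.27, adjusted p = 0.0293). The 4w values were 1.92, 1.2 and 1.23 CPM in controls and 2.61, 2.69 and 4.52 CPM with PQ, without overlap in the other direction (2.14-fold, log2 effect 1.10 ± 0.26, adjusted p = 0.0194). The 1w call was lost without control 1w replicate 2 or 3 or PQ 1w replicate 2 or 3 (adjusted p = 0.0675, 0.0742, 0.079 and 0.0808), and the 4w call without control 4w replicate 2 or 3 (adjusted p = 0.074 and 0.0687). The difference between the times, 1.89 ± 0.38, passed (adjusted p = 0.00292) and held in every refit without 1 library.

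Il12b, the subunit shared by IL-12 and IL-23 and made by dendritic cells and macrophages, gave the highest 4w effect of the 54 tested genes. Its 250 bases before the start, at chr11:44399813-44400062 on the plus strand (RefSeq, GRCm38.p6), are shown for comparison with the windows above. They hold none of the 3 motifs searched, which says only that these letters are not in this window.
Il12b: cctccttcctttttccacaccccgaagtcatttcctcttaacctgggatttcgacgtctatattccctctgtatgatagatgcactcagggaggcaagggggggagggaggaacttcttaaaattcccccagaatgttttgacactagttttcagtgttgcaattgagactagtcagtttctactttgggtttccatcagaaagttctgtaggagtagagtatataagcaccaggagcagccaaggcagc
Il12b was at 0.784, 0.775 and 0.934 CPM in control 1w and 0.647, 0.378 and 0.381 CPM in PQ 1w, and did not pass (adjusted p = 0.139). At 4w it was at 0.62, 1.2 and 0.397 CPM in controls and 3.43, 1.95 and 3.9 CPM with PQ. All PQ 4w libraries lay above all others (3.97-fold, log2 effect 1.99 ± 0.37, adjusted p = 0.00615). The call held in all 21 alternatives. Il12a, the partner subunit of IL-12, did not pass at either time.

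At 4w 10 of 54 interleukin genes passed, 18.5% against 12.1% of all tested genes, with 7 higher and 3 lower against 5.75% and 6.39%. The higher genes were Il12b, Il12rb1, Il17rb, Il1rl1, Il2ra, Il4i1 and Il7r, and the lower ones Il17rc, Il1f9 and Il4ra. The median log2 effect was 0.13 against 0.00 for all tested genes. The groups did not overlap for 19 of 54 genes, against 31.3% of all tested genes. Of the 10 calls 4 held in each refit that left out 1 library, namely Il12b, Il17rb, Il2ra and Il4i1. Without PQ 4w replicate 1 the number of calls was 6, and without PQ 4w replicate 3 it was 12. A fit on the 2 groups of 4w alone called 6, without Il12rb1, Il17rb, Il1f9 and Il7r, and DESeq2 called 16, adding Il10ra, Il1r2, Il1rl2, Il21r, Il2rb and Il9r.

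**Figure D3:**
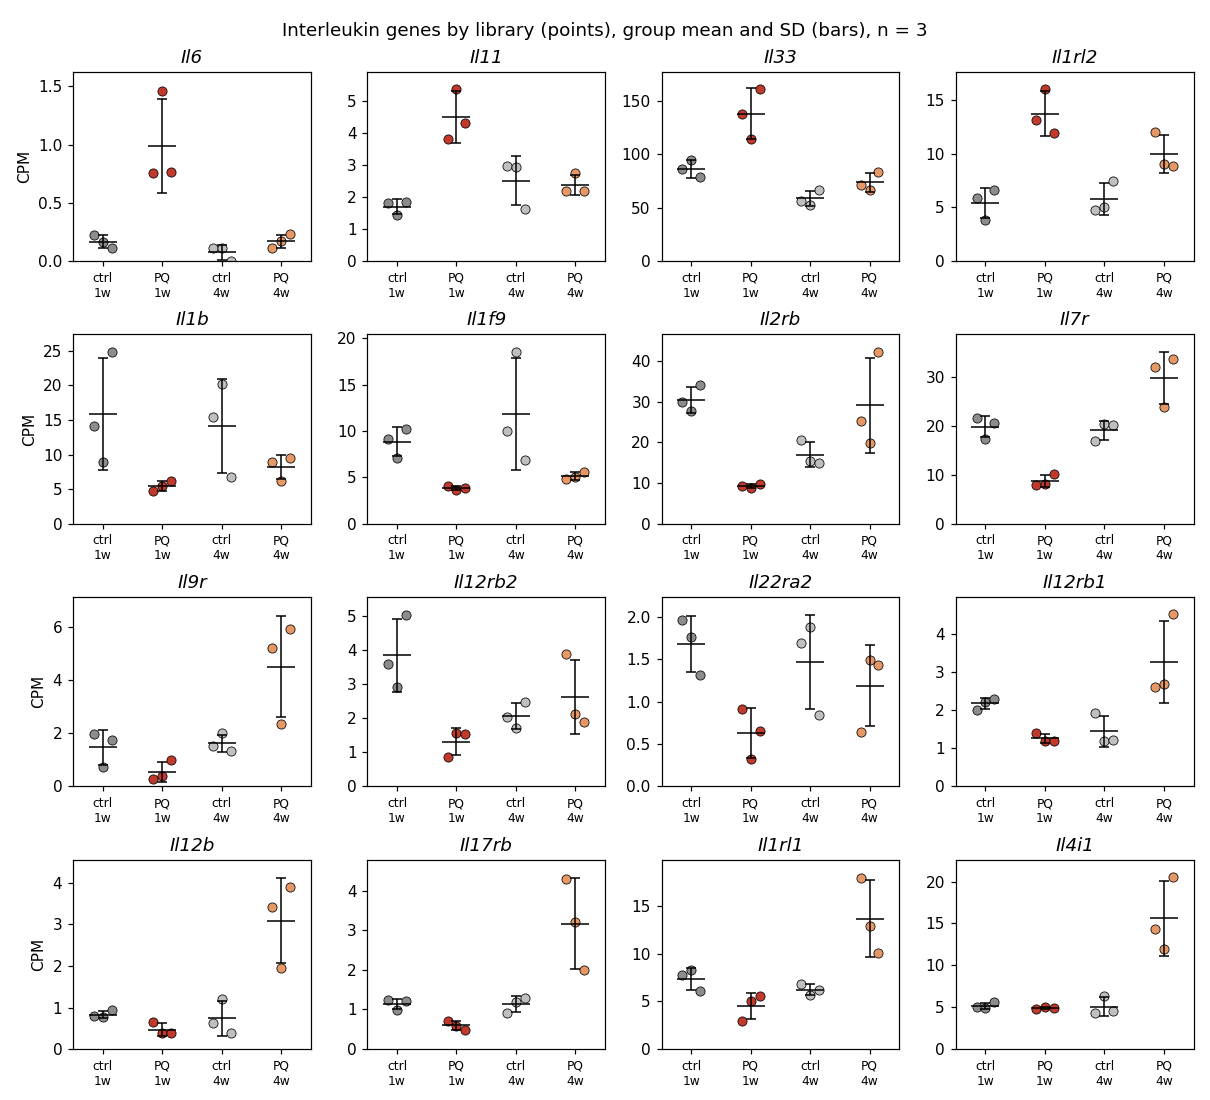
CPM of 16 interleukin genes in each library (points), with the group mean and SD (bars), n = 3 per group. Il6, Il11, Il33 and Il1rl2 are highest in PQ 1w, Il2rb, Il7r, Il9r and Il12rb2 are low in PQ 1w, and Il12b, Il17rb, Il1rl1 and Il4i1 are highest in PQ 4w.

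Il4i1, a secreted amino acid oxidase of myeloid and B cells, was at 5.06, 4.87 and 5.6 CPM in control 1w and 4.8, 4.97 and 4.9 CPM in PQ 1w, which overlapped. By 4w it stood at 4.28, 6.39 and 4.51 CPM in controls and 14.3, 11.9 and 20.5 CPM with PQ, all PQ libraries above all controls. The rise was 2.93-fold (log2 effect 1.55 ± 0.19, adjusted p = 0.00106). Tbc1d17 on the opposite strand covers 83.9% of the exonic bases of Il4i1, so the source of reads there is uncertain. Tbc1d17 itself was at 53.0 ± 2.94 CPM in control 4w and 59.2 ± 0.709 CPM in PQ 4w (log2 effect 0.09, adjusted p = 0.538).

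Il17rb, the IL-25 receptor chain of type 2 innate lymphoid cells and epithelium, also reversed. It was at 1.23, 0.996 and 1.21 CPM in control 1w and 0.7, 0.594 and 0.49 CPM in PQ 1w, without overlap (log2 effect -0.95 ± 0.33, adjusted p = 0.0318). The 4w values were 0.901, 1.2 and 1.29 CPM in controls and 4.3, 3.21 and 2.0 CPM with PQ, without overlap in the other direction (2.66-fold, log2 effect 1.41 ± 0.28, adjusted p = 0.00896). The 1w call was lost without control 1w replicate 1 or 3 or PQ 1w replicate 2 or 3 (adjusted p = 0.0785, 0.0753, 0.0718 and 0.101). The difference between the times was 2.35 ± 0.43 (adjusted p = 0.00179). The remaining IL-17 receptor chains moved less: Il17rd fell at 1w by 0.36 on the log2 scale (adjusted p = 0.0184), lost without control 1w replicate 3 or PQ 1w replicate 1 (adjusted p = 0.0755 and 0.0718). Il17rc, part of the IL-17A receptor, fell at 4w by 0.38 (adjusted p = 0.0256), a call lost without any 1 of the 3 control 4w libraries or PQ 4w replicate 1 or 3 (adjusted p between 0.0518 and 0.104). Il17ra, Il17re and the ligand Il17d did not pass at either time.

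Il4ra, the chain shared by the IL-4 and IL-13 receptors, was at 291, 204 and 254 CPM in control 1w and 326, 295 and 306 CPM in PQ 1w, without overlap but not passing (adjusted p = 0.0726). At 4w it was at 222, 229 and 193 CPM in controls and 124, 153 and 164 CPM with PQ. The PQ libraries were all lower (log2 effect -0.62 ± 0.13, adjusted p = 0.0116), a call lost without control 4w replicate 1 (adjusted p = 0.0573). Il13ra1, a partner of Il4ra, rose at 1w from 54.6 ± 8.51 to 86.9 ± 11.8 CPM (log2 effect 0.66 ± 0.14, adjusted p = 0.00191) and did not pass at 4w. The ligands gave few reads: Il4 had 25 counts and Il13 had 7 counts over all 12 libraries.

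The common beta chain receptors split at 1w. Il3ra, the IL-3 receptor chain, rose from 21.9 ± 3.01 to 39.1 ± 1.47 CPM (log2 effect 0.82 ± 0.12, adjusted p = 0.000116), while Il5ra, the IL-5 receptor chain of eosinophils and B cells, fell from 2.31 ± 0.148 to 1.39 ± 0.234 CPM (log2 effect -0.74 ± 0.21, adjusted p = 0.013). The Il5ra call was lost without PQ 1w replicate 2 (adjusted p = 0.054). Neither passed at 4w. An eosinophil list (5 genes) had 1 of 3 tested markers higher and 0 lower at 1w. It summed to 8.13 to 10.6 CPM in control 1w and 6.19 to 14.9 CPM in PQ 1w, with Ccr3, Ear6 or Epx at 0 in some libraries. The B cell list given above had 8 of 8 lower. The part of these cells in the Il5ra values was not tested. Monocyte-derived macrophage markers, 9 of 9 higher at 1w, summed to 276 to 299 CPM in control 1w and 1910 to 2730 CPM in PQ 1w, and 7 fibroblast markers, 4 higher and 1 lower at 1w, to 3120 to 3250 CPM and 10800 to 12300 CPM. At 4w 8 of 9 macrophage markers were higher, as was 1 of 7 fibroblast markers, with 0 lower in the latter list. The lists then stood at 303 to 359 against 672 to 869 CPM and at 2300 to 2470 against 2670 to 2890 CPM. Markers of the macrophage and fibroblast lists were above 0 in every library, and their part in the rises of Il3ra, Il13ra1, Il1r1, Il6, Il11 and Il33 was not tested.

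In the IL-10 family Il20rb, a receptor chain of IL-20 and IL-24 in epithelium, rose at 1w from 4.37 ± 0.293 to 7.90 ± 1.72 CPM (log2 effect 0.84 ± 0.22, adjusted p = 0.00766). Il22ra2, the soluble IL-22 binding protein, was at 1.96, 1.77 and 1.32 CPM in control 1w and 0.916, 0.324 and 0.654 CPM in PQ 1w. The groups did not overlap (2.66-fold lower, log2 effect -1.41 ± 0.43, adjusted p = 0.0166), and the call was lost without control 1w replicate 1 or PQ 1w replicate 2 (adjusted p = 0.0532 and 0.0654). By 4w it stood at 1.69, 1.88 and 0.842 CPM in controls and 0.639, 1.49 and 1.43 CPM with PQ, which overlapped (adjusted p = 0.594). Il10ra and Il10rb, the chains of the IL-10 receptor, did not pass at either time. Il16, a chemoattractant of CD4+ cells, fell at 1w from 40.2 ± 7.01 to 23.7 ± 1.12 CPM (log2 effect -0.77 ± 0.18, adjusted p = 0.00381), with 15.3% of its exonic bases overlapped by Stard5 on the opposite strand. Il34, a ligand of Csf1r, did not pass.

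Comparing the PQ effects between the times, 23 of 54 genes differed, 42.6% against 32% of all tested genes, with 19 higher at 4w and 4 lower against 14.1% and 17.9%. The 4 with a lower effect at 4w were Il11, Il1r1, Il3ra and Il4ra. Of these 23 calls 21 held in each refit without 1 library, and Il5ra and Il6ra did not. Within the PQ groups alone 31 of 54 genes differed between 4w and 1w, 57.4% against 54.6% of all tested genes, with 20 higher and 11 lower at 4w against 26.7% and 27.8%. Between the controls 5 of 54 differed, 9.26% against 10.1% of all tested genes, with 0 higher and 5 lower at 4w against 5.9% and 4.2%. The 5 were Il18r1, Il18rap, Il1r1, Il2rb and Il33. Their log2 effects lay between -0.85 and -0.34, and each of these 5 calls was lost when at least 1 library was left out. None remained without control 1w replicate 1, control 1w replicate 3, control 4w replicate 2 or control 4w replicate 3. In these refits, in that order, 306, 136, 113 and 160 of all tested genes passed in place of 1609. Of the 5 calls 2 remained without control 4w replicate 1, 3 without PQ 1w replicate 3, and 4 without control 1w replicate 2, where Il33 was lost.

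**Figure D4:**
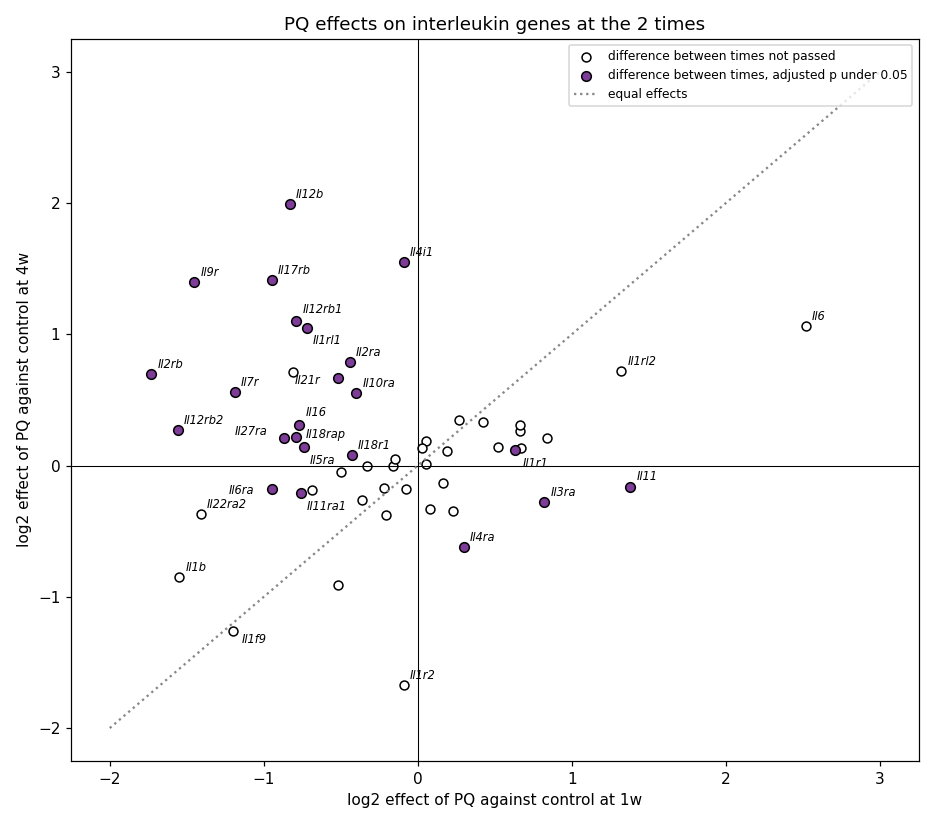
Log2 effect of PQ against control at 1w (horizontal) and at 4w (vertical) for the 54 tested interleukin genes. Filled points are the 23 genes whose effects differed between the times, and 19 of these lie above the dotted line of equal effects.

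Signal transducers of these receptors were followed in a list of 34 genes, all tested. At 1w 14 passed, 41.2% against 48.8% of all tested genes, with 3 higher and 11 lower and a median log2 effect of -0.06. Socs3, the feedback inhibitor of gp130 receptors, rose from 66.3 to 148 CPM (log2 effect 1.15, adjusted p = 1.08e-05). Stat4, the transducer of IL-12, fell from 10.5 to 2.71 CPM (log2 effect -1.96, adjusted p = 6.34e-05). At 4w 4 passed, 11.8% against 12.1% of all tested genes, 3 higher and 1 lower, all with an absolute log2 effect under 1.

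The 23 genes without a test were mostly ligands, and 10 of them had under 10 counts in total. Counts are given as sums over the 3 libraries of a group, and their ratio, intervals and p-values from the fit without a filter on low counts were taken up after the values were seen. Il23a, the IL-23 subunit, had 3, 1 and 0 counts in control 1w and 13, 18 and 8 counts in PQ 1w, with all PQ libraries above all controls. The ratio per total count was 9.53, and it passed in edgeR without the filter (adjusted p = 0.00182). Il24, a ligand of Il20rb, had 0 counts in all control 1w libraries and 4, 7 and 8 counts in PQ 1w, at least 6.19-fold higher when the control group is set at the floor of 3 counts (adjusted p = 0.00471 in edgeR without the filter). Il27, the IL-27 subunit paired with Ebi3, had 6, 4 and 7 counts in control 1w and 0, 0 and 1 in PQ 1w, a ratio of 0.0575 (95% counting interval 0.00138 to 0.367, adjusted p = 0.0129 in edgeR without the filter).

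Il5 had 8, 11 and 6 counts in PQ 4w and 5, 5 and 5 in control 4w, all PQ libraries above all controls, and did not pass (adjusted p = 0.423 in edgeR without the filter). Of the 13 counts of Il21 in PQ 4w, 12 were in replicate 3, the library with the highest T and B cell marker sums. The part of these cells in the Il21 counts was not tested. Il31ra, with 67 counts, was the most counted of the 23, and Il17b, Il17c, Il1rapl2, Il2, Il10, Il20ra and Il4 had between 13 and 32 counts in total.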

How the data were processed

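The 12 lung libraries were sequenced on a BGISEQ 500 after a check of RNA integrity, per the labels' protocols. The submitters' processing notes name HISAT, RSEM 1.2.12 and mm10. The authors deposited expected counts per gene, unscaled, and FPKM values, per the file headers; strandedness and the versions of HISAT and the annotation are not given in the sources.

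Counts, 69.7% of them whole, were rounded, and 27 symbols turned into dates were restored from gene IDs. Genes absent from a table were set to 0. Genes were tested by the quasi-likelihood F-test of edgeR (edgeR 4.0.16, R 4.3.3) over all 12 libraries and 4 group means, with TMM scaling (factors 0.974 to 1.06), filterByExpr (minimum count 10, minimum total count 15) and Benjamini-Hochberg adjustment over 15921 genes. CPM divide counts by the library total without TMM. The edgeR test at 1w was checked on simulated counts in which few genes changed. The other comparisons, and a change as broad as that seen at 1w, were not simulated. Alternatives used DESeq2 1.42.0 and limma 3.58.1 on log2(FPKM + 0.1) and log2(FPKM + 1). Gene positions are NCBI's for GRCm38.p6 and exon overlaps are GENCODE's. Interleukin genes that passed at 1w or 4w with an absolute log2 effect of at least 1 and a mean of at least 0.5 CPM were given in every library. Partner and signalling genes were named where called with an absolute log2 effect of at least 1, except an item that is not reported here. Interleukin genes, lists and tests were chosen with earlier results of these data known. Counting intervals and floors cover counting error only.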

Additional observations from a re-analysis of the deposited data

Results flagged for a closer look

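The effect of PQ differed between 1w and 4w in 23 interleukin genes by the test of the difference itself (interaction term in edgeR, adjusted p under 0.05). The values that follow are the log2 effect at 4w minus that at 1w. In the common gamma chain family it was Il9r 2.84, Il2rb 2.43, Il7r 1.76, Il2ra 1.23 and Il21r 1.2. In the IL-12 family it was Il12b 2.81, Il12rb1 1.89 and Il12rb2 1.82. Among IL-1 family receptors it was Il1rl1 1.77, Il18rap 1.01 and Il18r1 0.51. Among gp130 receptors it was Il27ra 1.08, Il6ra 0.77 and Il11ra1 0.55. For genes of other groups it was Il17rb 2.35, Il4i1 1.64, Il16 1.08, Il10ra 0.94 and Il5ra 0.88. Below 0 lay Il11 -1.54, Il3ra -1.10, Il4ra -0.92 and Il1r1 -0.51. T cell, NK cell and B cell markers were lower with PQ at 1w in 25 of 25 measured genes and higher at 4w in 3, and their part in these differences was not tested. For Il18r1 and Il18rap, PQ 4w against PQ 1w did not pass (log2 effects 0.11 and 0.29, adjusted p = 0.283 and 0.184, edgeR). Their control libraries were lower at 4w than at 1w (log2 effects -0.40 and -0.71, adjusted p = 0.0213 and 0.0331, edgeR).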

How the results depend on the processing

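No call changed direction in any alternative run. At 1w the number of interleukin genes called was 31 and lay between 26 and 34 over the other scalings, filters, tools and designs, and between 23 and 35 when 1 library was left out. At 4w it was 10; a fit on the 2 groups alone gave 6, DESeq2 gave 16, and leaving out 1 library gave 6 to 14. For the difference between the times it was 23, and 21 to 25 with 1 library left out. For PQ 4w against PQ 1w it was 31, and 28 to 32. Between the controls it was 5, and 0 to 7. Over every setting 20 of 31 calls at 1w, 3 of 10 at 4w (Il12b, Il2ra, Il4i1), 21 of 23 differences and 25 of 31 between the PQ groups were kept, and 0 of 5 between the controls. Without control 4w replicate 1, 642 of all tested genes passed at 4w in place of 1932.

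The labels do not say that replicate numbers pair the libraries. Deviations of same-numbered libraries had correlations between -0.35 and 0.242. Libraries with different numbers were not compared, so these values cannot decide on pairing. With replicate number as a block 31, 12, 23, 31 and 5 interleukin genes were called in the 5 comparisons in the order above. Il2ra at 1w lost its call, Il1a gained one at 1w, and Il17rd and Il1a gained one at 4w. Between the PQ groups Il17d and Il17ra lost their calls, and Il1a and Il20rb gained one.

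The median log2 effect of all genes at 4w was 0.004 with TMM and 0.076 with library totals alone. Of all genes called at 4w 47.4% were higher with TMM, 68.5% with library totals alone, 65.4% by limma on log2(FPKM + 0.1) and 65.0% on log2(FPKM + 1). The 23 untested genes, most of them ligands, rest on few counts.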
